A study of Mus musculus with 10 samples.

Results

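The 10 genes described here are markers of macrophages, measured in RNA from sorted osteoblastic lineage cells of mouse bone. They are Csf1r, Cd68, the complement genes C1qa, C1qb and C1qc, Mpeg1, Lyz2, Ly86, Ms4a6c and Ctss. Members were taken by gene symbol among probe sets with exactly 1 annotated symbol, and all 10 were found, each with 1 such probe set, among 19938 genes in all. The cells came from 5 BA mice, whose genotype is Scl-tTA::TRE-BCR/ABL, and from 5 age-matched control mice, with 1 mouse on each array and both groups on the C57BL/6 strain. Control mice are labelled only as such, and the sources used here do not say whether they carried either transgene. In BA mice regulatory DNA of the Scl gene drives the tetracycline transactivator, which directs the BCR/ABL oncogene to early blood-forming cells. Both groups were taken off doxycycline at 5 weeks of age, which releases the oncogene in BA mice and starts a myeloproliferative disease, and bones were collected 5 to 6 weeks later. Collagenase-released bone cells were stained for blood lineage antigens (Mac-1, the product of Itgam, among them), CD45, CD31, Sca-1 and CD51, and RNA of 500 to 2300 sorted cells per mouse was amplified. The labels do not give the sign of each gate. The comparison is of the macrophage marker levels in the sorted fraction of BA and control mice.

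Macrophages are phagocytes of the blood lineage that live in most tissues. In bone marrow they clear dying cells and expelled nuclei, line bone surfaces beside osteoblasts, and share a precursor with osteoclasts. Their survival depends on the receptor encoded by Csf1r, which binds the growth factors CSF1 and IL-34. They make most of the body's C1q, a recognition protein built from A, B and C chains that starts the classical complement pathway, and they carry a rich set of lysosomal enzymes. None of these genes is part of the osteoblast program, although Cd68 and lysosomal enzymes are not restricted to macrophages and Lyz2 is also high in neutrophils.

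Values are log2 expression as the authors deposited them, so a difference of 1 is a 2-fold change, and differences are BA minus control. Array medians lay between 5.91 and 6.02. Defining genes of bone and cartilage cells were present at high values on all arrays, such as Ibsp (bone sialoprotein) at 12.59 to 12.85 and Sox9 (the regulator of cartilage) at 11.07 to 11.52. Over all genes, 1 of 19938 (0.00502%) passed the adjusted threshold of 0.05 in limma, and 1875 (9.4%) had an unadjusted p under 0.05. In amplified bulk RNA, fewer cells of a type and less RNA per cell cannot be told apart.

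Sequences upstream of the genes were read from RefSeq promoter records of build GRCm38.p6, in which 8 of the 10 members were matched. Shown are the 250 bases before the transcript start of 6 members, 5′ to 3′ on the gene's own strand. C1qb and C1qc are adjacent genes whose highest arrays differed, and the other 4 are the members with the highest values on BA replicate 5 relative to the control mean. Capitals mark the motifs GGAAGT and GAGGAA, which resemble the binding site of PU.1, the transcription factor that specifies myeloid cells, on either strand (ACTTCC and TTCCTC on the reverse).

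C1qb (chr4:136886201-136886450, minus strand): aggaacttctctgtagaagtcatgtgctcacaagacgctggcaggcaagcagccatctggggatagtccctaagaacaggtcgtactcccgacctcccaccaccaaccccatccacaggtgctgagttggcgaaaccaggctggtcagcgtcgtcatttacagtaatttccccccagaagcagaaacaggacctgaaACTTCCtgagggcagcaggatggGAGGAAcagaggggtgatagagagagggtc
C1qc (chr4:136892915-136893164, minus strand): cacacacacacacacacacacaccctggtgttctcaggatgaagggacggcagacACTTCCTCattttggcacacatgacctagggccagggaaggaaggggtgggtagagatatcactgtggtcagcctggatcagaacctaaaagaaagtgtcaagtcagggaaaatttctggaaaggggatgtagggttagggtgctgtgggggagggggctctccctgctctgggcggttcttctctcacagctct
Lyz2 (chr10:117282273-117282522, minus strand): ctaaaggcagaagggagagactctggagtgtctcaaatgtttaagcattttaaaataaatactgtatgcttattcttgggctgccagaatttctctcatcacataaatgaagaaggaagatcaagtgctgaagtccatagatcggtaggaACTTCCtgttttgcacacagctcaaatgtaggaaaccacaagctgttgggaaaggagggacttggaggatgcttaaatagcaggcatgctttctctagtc
Ctss (chr3:95526536-95526785, plus strand): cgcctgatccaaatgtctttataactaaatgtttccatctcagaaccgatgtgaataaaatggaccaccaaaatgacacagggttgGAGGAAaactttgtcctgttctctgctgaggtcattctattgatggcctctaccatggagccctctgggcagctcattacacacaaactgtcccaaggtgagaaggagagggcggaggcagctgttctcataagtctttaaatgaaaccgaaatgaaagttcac
Ms4a6c (chr19:11469118-11469367, plus strand): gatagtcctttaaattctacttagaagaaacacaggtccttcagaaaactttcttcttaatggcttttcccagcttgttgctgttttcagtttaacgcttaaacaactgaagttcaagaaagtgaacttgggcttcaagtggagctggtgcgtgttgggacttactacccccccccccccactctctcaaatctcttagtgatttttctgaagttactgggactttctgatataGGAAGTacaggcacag
Mpeg1 (chr19:12460520-12460769, plus strand): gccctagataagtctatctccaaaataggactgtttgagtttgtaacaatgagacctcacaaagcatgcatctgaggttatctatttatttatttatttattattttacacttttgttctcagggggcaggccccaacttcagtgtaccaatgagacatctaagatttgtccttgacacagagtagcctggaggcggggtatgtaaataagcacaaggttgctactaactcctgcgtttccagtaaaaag

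GGAAGT stood in 4 of the 8 member promoters and in 19.7% of 32851 promoter windows of the same length, and GAGGAA in 4 of 8 and in 23.3%. At least 1 of the 2 motifs was found in 6 of 8, against 36.7%. In C1qb the hits began 53 and 30 bases before the start, in Lyz2 100 bases, in Ctss 164 bases and in Ms4a6c 16 bases before it. In C1qc the 2 motifs overlap, beginning 195 and 193 bases before the start. Neither string of letters occurs in the Mpeg1 or Ly86 window. A match is a description of these letters and says nothing about the factor.

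The macrophage markers averaged higher in BA cells, but no single gene passed the test. The highest value of each gene lay on BA replicate 1 or on BA replicate 5. BA replicate 4 was also high for Lyz2 and Csf1r, and BA replicate 3 for Cd68. For C1qa, C1qb and Ms4a6c a control array stood above BA replicate 1. The mean was higher in BA for 9 of the 10 genes, against 37.7% of all genes, and the median difference was 0.67, against -0.06 over all genes. Counts of higher genes in the lists below are to be read against the same 37.7%. Over all genes tested, 0 of 10 members passed the adjusted threshold in limma, with adjusted p between 0.5015 and 0.976. An unadjusted p under 0.05 was found for 1 of 10 with a higher value in BA, against 4.13% of genes, and for 0 of 10 with a lower value, against 5.27%. A difference of at least 1 was found for 1 member, Lyz2, against 1.56% of genes. No member had all BA arrays above all control arrays, against 0.567% of genes. The spread between mice was larger in BA for every one of the 10 members, while 48.5% of all genes had the larger SD in BA. The ratio of the SDs ran from 1.02 for Lyz2 to 5.64 for Ly86.

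**Figure D1:**
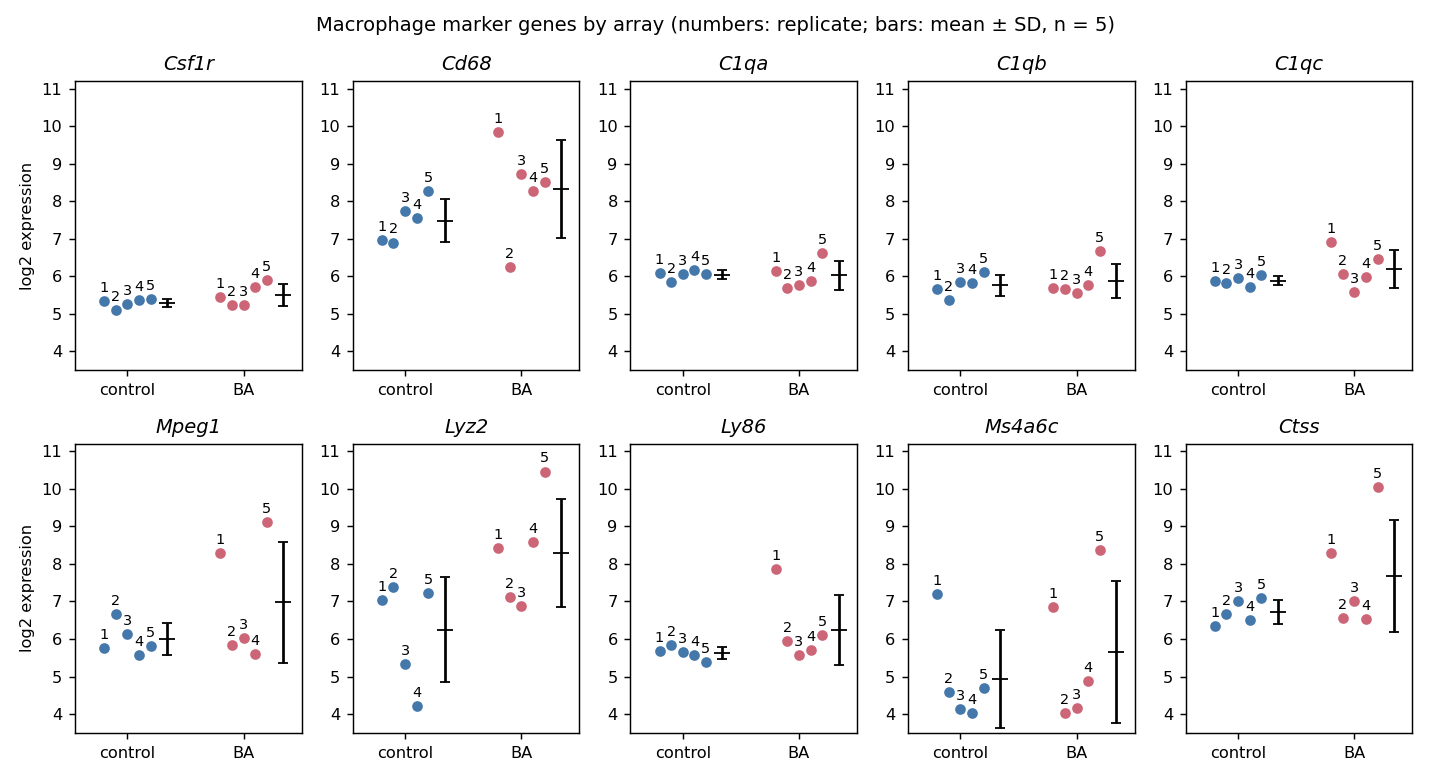
Log2 expression of the 10 macrophage marker genes on each array; points are mice numbered by replicate, in blue for control and red for BA, and the bar beside each group is the mean ± SD (n = 5). BA replicates 1 and 5 supply the highest value of every gene, at 6.92 for C1qc on replicate 1 and at 10.46 for Lyz2 on replicate 5, for example, while BA replicate 2 lies within or below the control range for most genes.

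The highest of the 10 arrays was BA replicate 5 for 7 members, against 7.42% of all genes, and BA replicate 1 for the other 3, Cd68, C1qc and Ly86, against 11.8% of genes. BA replicate 5 lay above every control array for 10 of 10 members, against 12.8% of all genes, and BA replicate 1 for 7 of 10, against 17.0%. Both did so for 7 members, against 4.08% of genes. By a margin of more than 1, BA replicate 5 exceeded every control array for 4 members (1.7% of all genes), BA replicate 1 for 5 members (0.978%) and BA replicate 4 for 1 member, Lyz2 (0.843%). As a mean over the 10 genes, set against the control mean of each gene, the arrays stood at 1.83 for BA replicate 5, 1.38 for replicate 1, 0.29 for replicate 4, 0.06 for replicate 3 and -0.16 for replicate 2. Control arrays ranged from -0.34 to 0.21 in this mean, so the other 3 BA mice lay in or just above the control range. As a median over the 10 genes the order of the 2 high arrays reversed, with BA replicate 1 at 1.73 and replicate 5 at 0.98. The median of BA replicate 4 was 0.035, and its highest deviation was 2.34, for Lyz2.

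Csf1r, the receptor that defines the macrophage lineage, differed little between the groups. Its log2 level was 5.35, 5.11, 5.25, 5.36 and 5.39 in control replicates 1 to 5 and 5.45, 5.24, 5.24, 5.71 and 5.90 in BA replicates 1 to 5. The groups overlapped, and BA replicates 4 and 5 were the highest. Control cells averaged 5.29 ± 0.11 and BA cells 5.51 ± 0.29 (SD, n = 5 each). Both means lay below the array medians, and signal over background was not judged, so a small difference here is hard to read. The limma difference was 0.22 ± 0.14 (SE), its 95% interval ran from -0.10 to 0.53, and the adjusted p was 0.590.

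Csf1 and Il34 encode the ligands of this receptor. Csf1 lay at 7.99, 7.86, 7.04, 6.01 and 5.95 in control and at 6.34, 6.40, 6.14, 6.14 and 6.01 in BA cells, and differed by -0.76 ± 0.39. Control replicates 1, 2 and 3 stood above all BA arrays and control replicates 4 and 5 did not. Il34 was at 6.22 to 7.98 in control and at 6.11 to 6.30 in BA cells, a difference of -0.62 ± 0.29. Neither passed the test. In the list of CSF1 ligands and myeloid transcription factors 3 of 11 measured genes were higher, 8 lower and 0 past the adjusted threshold in either direction (median -0.08). Spi1, which encodes PU.1, differed by -0.08 ± 0.23, with BA replicate 1 at 6.16 and BA replicate 5 at 6.68 against 5.76 to 6.78 in control, so its groups overlapped. Among the smallest p in this list were also Klf4, a zinc finger factor of monocytes and of stroma, at 0.31 ± 0.14, Irf8, a monocyte and dendritic cell factor, at -0.26 ± 0.13, and the cytokine gene Csf2 at 0.60 ± 0.30.

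The C1q chains averaged close to control and did not share a pattern over the BA arrays. The control means of C1qa, C1qb and C1qc, at 6.04, 5.76 and 5.88, lay near the array medians of 5.91 to 6.02. Signal over background was not judged, so absent signal could give similar values. RefSeq places C1qb, C1qc and C1qa beside each other on chromosome 4. C1qa, the A chain, measured 6.09, 5.84, 6.06, 6.16 and 6.05 in control and 6.14, 5.69, 5.78, 5.88 and 6.63 in BA cells. For C1qb, the B chain, the values were 5.67, 5.36, 5.84, 5.83 and 6.12 in control and 5.70, 5.66, 5.55, 5.76 and 6.68 in BA cells. For both genes BA replicate 5 was the single array above the control range. C1qc, the C chain, stood at 5.88, 5.81, 5.95, 5.72 and 6.04 in control and at 6.92, 6.06, 5.59, 5.98 and 6.45 in BA cells, so that replicate 1 and not replicate 5 was highest. The difference of C1qa was -0.02 ± 0.17 (95% interval -0.39 to 0.36, adjusted p = 0.976), that of C1qb 0.11 ± 0.22 (-0.39 to 0.60, adjusted p = 0.862) and that of C1qc 0.32 ± 0.22 (-0.16 to 0.80, adjusted p = 0.594), each by limma. On BA replicate 1 the chains thus stood apart, with C1qc 1.04 above its control mean and C1qa and C1qb at 0.10 and -0.06.

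C1q acts through the proteases C1r and C1s and is sensed through receptors on phagocytes. Of 14 measured complement partners, 9 were higher and 5 lower in BA cells, with 0 past the adjusted threshold in either direction and a median difference of 0.16. C1ra, the C1r protease, differed by 0.10 ± 0.23 and C1s1, the C1s protease, by -0.38 ± 0.42. The largest difference was that of Serping1, the plasma inhibitor of both proteases, which lay at 10.77, 10.80, 10.45, 9.17 and 8.96 in control and at 9.39, 7.97, 8.78, 8.71 and 7.93 in BA cells. All BA arrays but replicate 1 were below every control array, and the difference was -1.47 ± 0.43 without passing the threshold. C2, the next component of the classical pathway, differed by -0.48 ± 0.23 and C4b by 0.64 ± 0.36. C3ar1, the receptor of the C3a fragment, reached 8.58 on BA replicate 5, and the other 9 arrays lay between 4.91 and 6.53. C5ar1, the C5a receptor, reached 8.73 on the same array, and the other 9 lay between 5.39 and 6.65. BA replicate 5 exceeded every control array for 6 of the 14 partners (12.8% of all genes) and BA replicate 1 for 2 (17.0% of all genes).

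Lyz2, Mpeg1 and Ctss gave the largest differences among the members. Lyz2 encodes lysozyme M, which digests bacterial cell walls. Its level was 7.05, 7.38, 5.34, 4.22 and 7.22 in control and 8.42, 7.11, 6.88, 8.58 and 10.46 in BA cells. BA replicates 1, 4 and 5 lay above every control array, while replicates 2 and 3 lay inside the control range, which spans 2 low arrays, control replicates 3 and 4. Control cells averaged 6.24 ± 1.40 and BA cells 8.29 ± 1.43 (SD, n = 5 each). The difference was 2.05 ± 0.79, or 4.14-fold, with a 95% interval from 0.30 to 3.80, an unadjusted p of 0.026 and an adjusted p of 0.5015 (limma). Lyz1, its near-identical neighbour on chromosome 10, differed by 0.42 ± 0.21, with BA replicates 1 and 5 highest at 7.48 and 7.52 against 6.26 to 7.05 in control. Probes for such similar genes can pick up each other's RNA, so the 2 values are not independent.

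Mpeg1 encodes perforin-2, a pore-forming protein of phagocytes. It stood at 5.75, 6.66, 6.14, 5.58 and 5.82 in control and at 8.30, 5.85, 6.03, 5.60 and 9.12 in BA cells. BA replicates 1 and 5 were thus far above the other 8 arrays, and BA replicates 2, 3 and 4 were within the control range. The difference was 0.99 ± 0.66 with a 95% interval from -0.47 to 2.45 (adjusted p = 0.594, limma).

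Ctss encodes cathepsin S, the cysteine protease that trims the invariant chain of MHC class II molecules. Its values were 6.35, 6.67, 7.02, 6.51 and 7.08 in control and 8.28, 6.57, 7.00, 6.52 and 10.04 in BA cells. The same 2 BA arrays were high and the other 3 were within the control range. The difference was 0.96 ± 0.61, with a 95% interval from -0.39 to 2.30 (adjusted p = 0.585, limma). Among 16 other lysosomal proteases and membrane proteins, 11 were higher and 5 lower (median 0.10), with 0 past the adjusted threshold in either direction. BA replicate 5 exceeded the control range for 6 of the 16 (12.8% of all genes) and BA replicate 1 for 1 (17.0% of all genes). Ctsb, the broadly expressed cathepsin B, was at 8.51 to 9.31 in control and at 9.22 to 10.40 in BA cells, and differed by 0.70 ± 0.23. BA replicates 2 and 3, whose means over the macrophage markers lay within the control range, were its highest arrays. Ctsh, an aminopeptidase cathepsin, differed by 0.84 ± 0.39 and Lamp1, a lysosomal membrane protein, by -0.35 ± 0.15. Ctsk, the adjacent gene to Ctss and the main collagenase of osteoclasts, differed by 0.08 ± 0.35.

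MHC class II genes, whose products cathepsin S serves, were measured for 6 of the 7 listed. Of these, 5 were higher and 1 lower, 0 passed the adjusted threshold in either direction, and the median difference was 0.64. For 3 of the 6, both BA replicates 1 and 5 exceeded every control array, against 4.08% of all genes. The mean of the 6 genes was at 1.44, 0.48, 0.35, 0.42 and 1.28 on BA replicates 1 to 5. In control this mean ranged from -0.14 to 0.13, so every BA array lay above that range. H2-Ab1, a class II beta chain, lay at 5.57 to 6.03 in control and at 9.42, 7.47, 7.59, 6.05 and 9.02 in BA replicates 1 to 5. All 5 BA arrays were above all control arrays, narrowly on replicate 4, and the difference was 2.14 ± 0.54 (adjusted p = 0.384, limma). H2-Aa, the alpha chain, differed by 1.32 ± 0.47, with BA replicate 1 at 8.11, replicate 4 at 6.99 and replicate 5 at 6.30 against 4.73 to 5.37 in control. The invariant chain gene Cd74 differed by 1.06 ± 0.50, from 5.49 to 6.62 in control to 7.47, 6.98, 5.61, 6.17 and 8.68 in BA cells, and H2-Eb1, another beta chain, by 0.21 ± 0.12.

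Cd68, Ly86 and Ms4a6c complete the set. Cd68 encodes macrosialin, a lysosomal glycoprotein. It measured 6.96, 6.90, 7.73, 7.55 and 8.26 in control and 9.85, 6.25, 8.72, 8.27 and 8.52 in BA cells. Here 4 of 5 BA arrays were above the control range, replicate 4 by a margin of 0.01 only, and replicate 2 was the lowest of all 10. The difference was 0.84 ± 0.56 with a 95% interval from -0.41 to 2.09 (adjusted p = 0.594, limma).

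Ly86 encodes MD-1, the secreted partner of the Toll-like receptor relative CD180. Its values were 5.69, 5.83, 5.65, 5.58 and 5.38 in control and 7.86, 5.94, 5.58, 5.70 and 6.10 in BA cells. BA replicate 1 stood alone, and the next BA arrays were just above the control range or within it. The difference was 0.61 ± 0.38 with a 95% interval from -0.23 to 1.45 (adjusted p = 0.5835, limma). Cd180 itself differed by 0.19 ± 0.19, with BA replicates 1 and 5 highest at 6.28 and 6.44 against 5.54 to 6.01 in control. Of the 6 genes of the CD180 and TLR4 receptor complexes, 5 were higher and 1 lower, with 0 past the adjusted threshold in either direction and a median of 0.35. Ly96, which encodes the corresponding partner MD-2 of TLR4, was at 2.92 to 4.23 in control and at 3.47, 4.50, 4.02, 6.63 and 7.71 in BA cells, a difference of 1.69 ± 0.75. Its high arrays were BA replicates 4 and 5, not replicate 1. Cd14, the lipopolysaccharide co-receptor of monocytes, differed by 0.95 ± 0.56, Myd88, the adaptor of these receptors, by 0.52 ± 0.61, and Tlr4 itself by -0.14 ± 0.30.

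Ms4a6c belongs to a clustered family of small membrane proteins. It stood at 7.20, 4.58, 4.14, 4.04 and 4.69 in control and at 6.84, 4.02, 4.16, 4.87 and 8.36 in BA cells. Besides BA replicates 1 and 5, control replicate 1 was high, so both groups held low and high arrays. The difference was 0.72 ± 0.90 with a 95% interval from -1.28 to 2.72 (adjusted p = 0.764, limma). Without control replicate 1 it was 1.29, and without BA replicate 5 it was 0.04. Of 11 other MS4A genes, 5 were higher and 6 lower, with a median of -0.02 and 0 past the adjusted threshold in either direction. BA replicate 5 exceeded the control range for 5 of the 11 (12.8% of all genes) and BA replicate 1 for 1 (17.0% of all genes). No gene of the 11 exceeded it on both, against 4.08% of all genes. Ms4a6d, a close relative, reached 7.00 on BA replicate 5, and the other 9 arrays lay between 4.46 and 4.92, with BA replicate 1 at 4.56. Ms4a4a reached 7.73 on BA replicate 5 against 4.23 to 4.73 elsewhere. The family members with the smallest p were Ms4a4d (-0.79 ± 0.39), Ms4a4b (-0.14 ± 0.10), Ms4a3 (-0.51 ± 0.49) and Ms4a4c (0.23 ± 0.22).

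**Figure D2:**
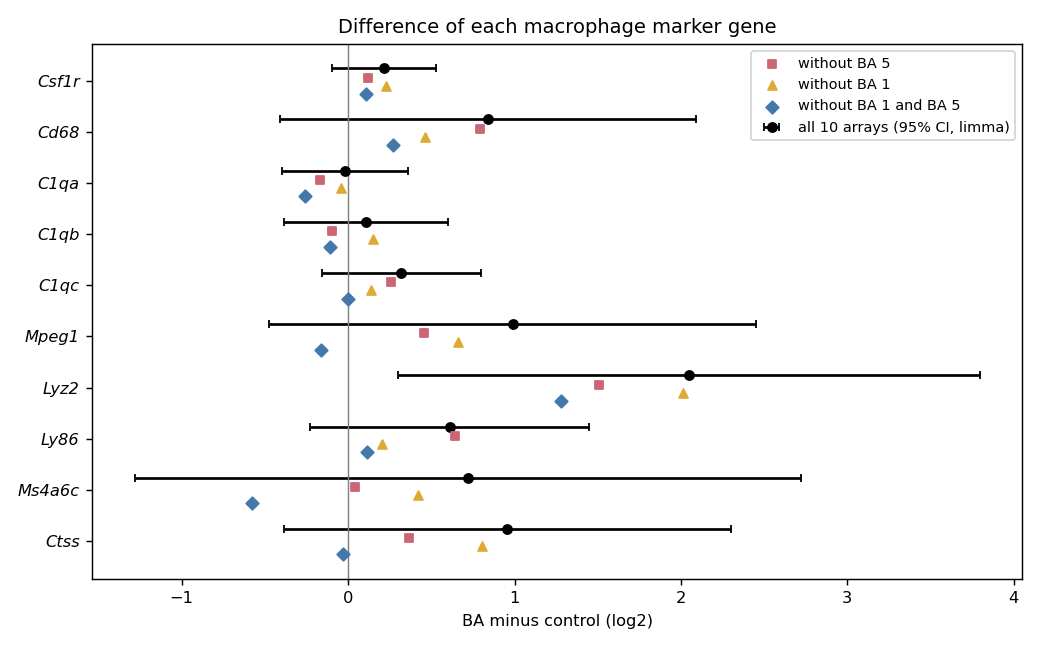
Difference of each macrophage marker gene between BA and control in log2 units; black circles with bars are the limma estimates and 95% intervals over all 10 arrays, and colored symbols are estimates without BA replicate 5, without replicate 1 and without both. The interval excludes 0 for Lyz2 alone, at 2.05, and without both arrays 6 of the 10 estimates lie below 0.

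Leaving out BA replicate 5 lowered the median difference of the members to 0.31, and leaving out BA replicate 1 lowered it to 0.33. Without both, 4 of 10 members were higher in BA and the median difference was -0.016. These 2 arrays were singled out because they held the highest values, so leaving them out had to lower the differences. The members then higher in BA were Lyz2 (1.28), Cd68 (0.27), Ly86 (0.11) and Csf1r (0.10), and Ms4a6c had the lowest difference (-0.58).

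Among the other macrophage and monocyte genes, BA replicate 5 exceeded the control range for more genes than BA replicate 1. Of 29 other macrophage and monocyte genes measured, 15 were higher and 14 lower in BA (median 0.03), and 0 passed the adjusted threshold in either direction. BA replicate 5 exceeded every control array for 12 of the 29 (12.8% of all genes) and BA replicate 1 for 4 (17.0% of all genes). A single gene of the 29, Cd14, was above the control range on both, against 4.08% of all genes. Its level was 7.55 on BA replicate 1 and 9.89 on BA replicate 5. Adgre1, which encodes a classic surface antigen of tissue macrophages, reached 6.20 on BA replicate 5, while the other 9 arrays lay between 4.42 and 4.80, with BA replicate 1 at 4.57. Ccr2, the chemokine receptor of inflammatory monocytes, reached 7.55 on BA replicate 5 but 4.63 on BA replicate 1, against 4.18 to 5.04 in control. Fcgr1, the high-affinity IgG receptor, lay between 5.72 and 6.08 on all 10 arrays. The genes with the smallest p were Trem2, a lipid receptor of macrophages and osteoclasts (-0.35 ± 0.10), F13a1, coagulation factor XIII A (0.55 ± 0.26), Hmox1, the enzyme that breaks down haem (0.72 ± 0.35), and Spic, the factor of iron-recycling macrophages (-0.26 ± 0.12). Trem2 lay at 6.88 to 7.34 in control and at 6.65 to 6.87 in BA cells, on all BA arrays just below the control range.

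**Figure D3:**
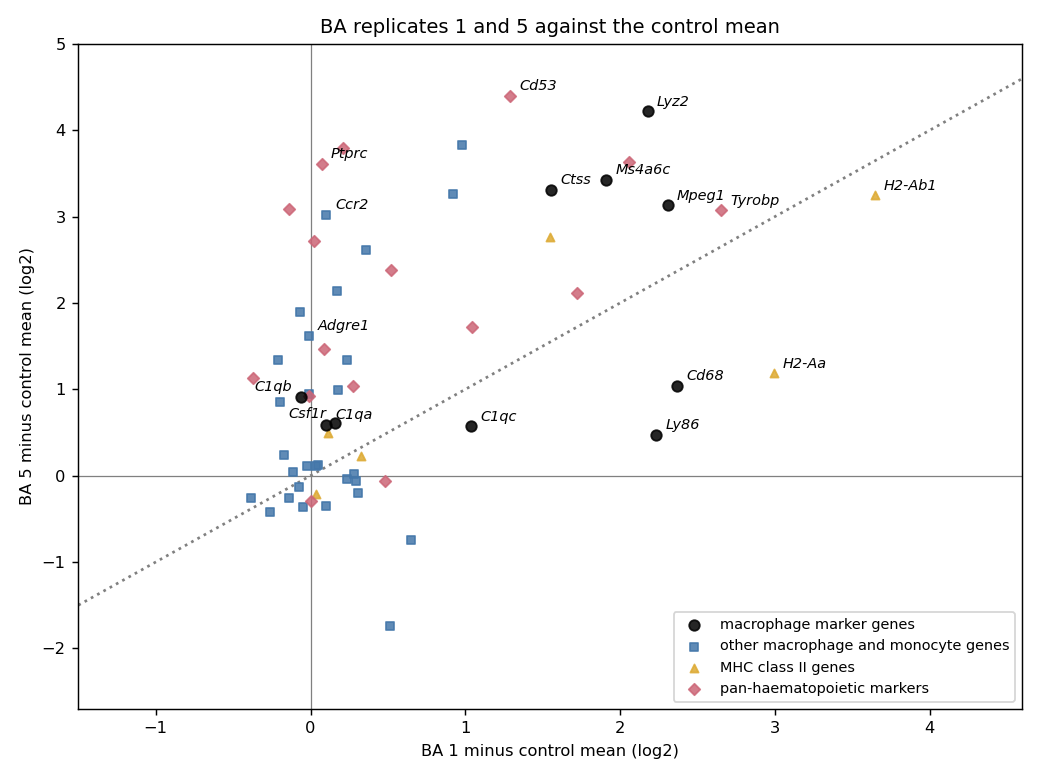
Log2 level on BA replicate 5 (vertical) against BA replicate 1 (horizontal), each minus the gene's control mean; symbols mark the macrophage marker genes, other macrophage and monocyte genes, MHC class II genes and pan-haematopoietic markers, and the dotted line marks equal values. Lyz2, Ms4a6c, Ctss and Mpeg1 are well above the control mean on both arrays, though for Ms4a6c control replicate 1 exceeded BA replicate 1. Cd68 and Ly86 lie below the line, and Ptprc, Ccr2 and Adgre1 are near 0 on replicate 1 and high on replicate 5.

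Markers of blood cells in general, some of them mainly myeloid, were as a mean high beside the macrophage markers on BA replicate 5. Of 16 pan-haematopoietic markers 14 were higher and 2 lower in BA (median 0.66), with 0 past the adjusted threshold in either direction. BA replicate 5 exceeded every control array for 13 of the 16 (12.8% of all genes) and BA replicate 1 for 5 (17.0%). Both did so for 4 of the 16, against 4.08% of all genes. As a mean over the 16 genes, control arrays ranged from -0.56 to 0.63 and BA arrays from 0.03 to 2.17, with BA replicate 1 at 0.62, inside the control range. Ptprc, the gene of the sorting antigen CD45, stood at 5.75 on BA replicate 1, within the control values of 5.54 to 5.90, and at 9.29 on BA replicate 5. Itgam, the gene of the sorting antigen Mac-1, was at 5.53 and 7.95 on these arrays, against 4.94 to 5.45 in control. Tyrobp, the signalling adaptor of myeloid receptors, was high on both, at 10.88 and 11.30 against 6.51 to 9.86 in control, and differed by 1.76 ± 0.75. The smallest p of the list was that of Arhgdib, at 10.10 to 11.19 in control and high on BA replicates 1, 2, 3 and 5 at 11.67, 11.68, 11.73 and 12.35 (difference 1.04 ± 0.29). Also among the smallest p were the granule proteoglycan gene Srgn (1.06 ± 0.42) and the platelet and leukocyte signalling gene Plek (1.72 ± 0.60). Neutrophil markers were higher in BA for 14 of 14 genes (median 0.97, 0 past the adjusted threshold in either direction), with means by array from -0.93 to 0.91 in control and at 1.46, 0.16, 0.43, 1.08 and 2.59 in BA replicates 1 to 5. BA replicate 5 exceeded every control array for 12 of the 14 (12.8% of all genes) and BA replicate 1 for 6 (17.0%). Both did so for 6 of the 14, against 4.08% of all genes. Cxcr2, the neutrophil chemokine receptor, was at 8.75 on BA replicate 1, 6.75 on replicate 4 and 8.34 on replicate 5, against 3.40 to 4.05 in control, and differed by 2.65 ± 0.96. S100a8 differed by 0.94 ± 0.40 and S100a9 by 1.07 ± 0.51. Lcn2, a secreted iron-binding protein in the neutrophil list, differed by 4.43 ± 0.67 and is included in the means by array. It lay at 10.78, 11.05, 12.00, 8.54 and 11.74 in BA replicates 1 to 5, against 5.69 to 8.10 in control. Lcn2 was thus high on BA replicates 2 and 3 as well, where Cxcr2 stayed at 3.82 and 3.72. The part of these other blood cells in the macrophage marker values was not tested.

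**Figure D4:**
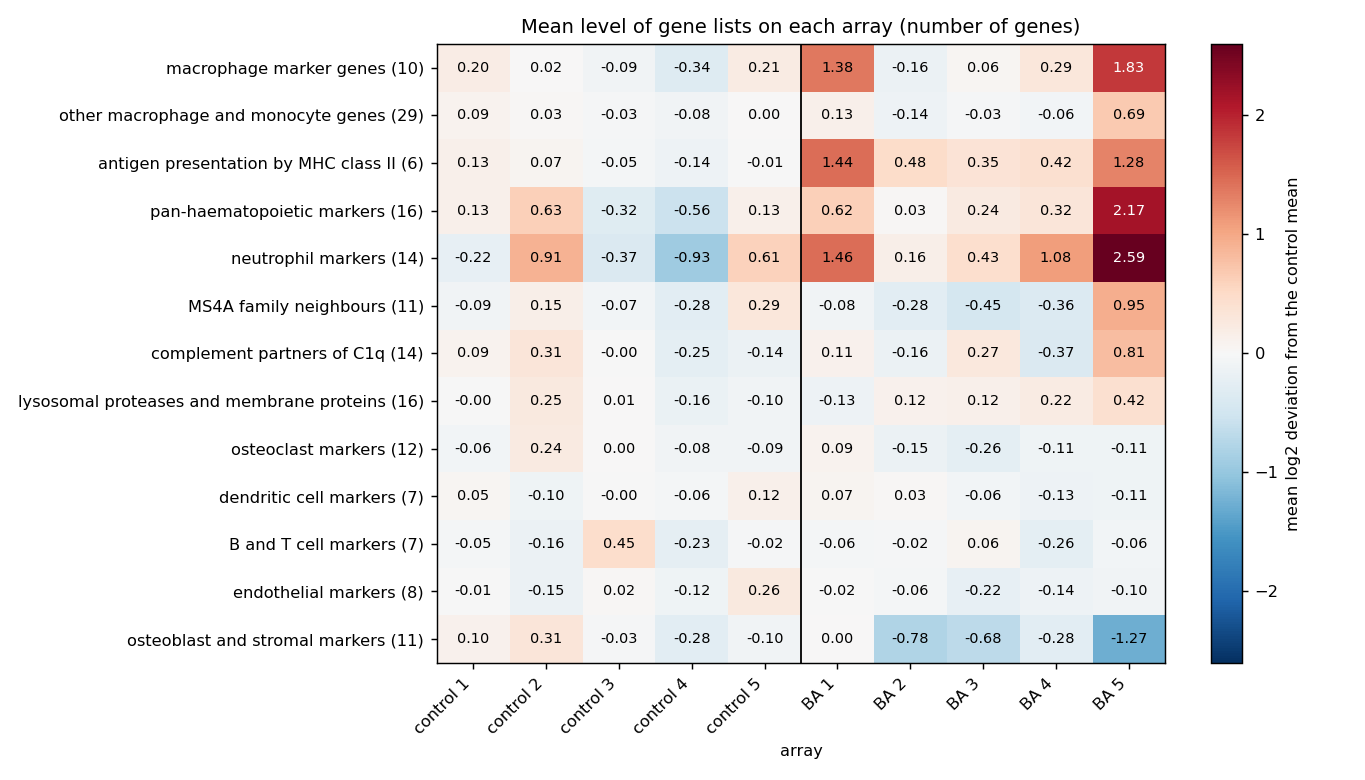
Mean log2 deviation from the control mean of each gene list (rows, with the number of genes measured) on each of the 10 arrays (columns; the line separates control from BA); red is above and blue below the control mean. The macrophage marker genes stand at 1.38 and 1.83 on BA replicates 1 and 5, and the osteoblast and stromal markers at 0.00 and -1.27.

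Lists of other blood, bone and vessel cells are given next by their counts, beside 37.7% of all genes with a higher mean in BA. Osteoclast markers had 4 of 12 genes higher and 8 lower (median -0.08), with array means from -0.09 to 0.24 in control and from -0.26 to 0.09 in BA cells. Nfatc1, the osteoclast regulator that stroma also expresses, differed by 0.53 ± 0.19 and Car2, carbonic anhydrase 2, by -1.27 ± 0.65. Dendritic cell markers had 1 of 7 higher (median -0.04), B and T cell markers 1 of 7 (median -0.08), endothelial markers 2 of 8 (median -0.13) and erythroid markers 0 of 5 (median -0.39). Of 6 mast cell and basophil markers 3 were higher and 3 lower (median 0.30), with Mcpt8, the basophil protease, at 7.81, 6.22, 7.78, 4.97 and 7.99 in BA replicates 1 to 5 against 4.81 to 6.18 in control (difference 1.63 ± 0.56). The mean of these 6 genes stood at 0.60, 0.13, 0.63, -0.23 and 0.72 in BA replicates 1 to 5, against -0.25 to 0.26 in control, so it was high on BA replicate 3 as well as on replicates 1 and 5. On both BA replicates 1 and 5, 3 of the 6 exceeded every control array, against 4.08% of all genes. Osteoblast and stromal markers had 3 of 11 genes higher and 8 lower (median -0.65). Their mean was at 0.00, -0.78, -0.68, -0.28 and -1.27 on BA replicates 1 to 5, against -0.28 to 0.31 in control. BA replicates 2, 3 and 5 were thus lowest, and of these only replicate 5 had a high mean of the macrophage markers. The genes of this list did not move together. Itgav, the gene of the sorting antigen CD51, had its smallest p and was higher in BA, by 0.77 ± 0.19. Next by p were Col1a2 (-1.16 ± 0.31), Col1a1 (-1.25 ± 0.34) and Lepr (-1.99 ± 0.60), and Ibsp differed by -0.01 ± 0.08. Chondrocyte markers had 5 of 7 higher and 2 lower (median 0.09). In each of these 8 lists 0 genes passed the adjusted threshold in either direction.

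Genes outside the set with the most similar pattern were ranked by Pearson's r with the mean of the 10 members, as a description over arrays. Over 10 arrays these were Cd200r4, a myeloid immune receptor gene (r = 0.96), Wfikkn2 (0.94), the leukocyte adaptor gene Lcp2 (0.94), the myeloid receptor gene Cd300lf (0.94) and Bcl2a1c (0.93). All 5 had BA replicates 1 and 5 as their highest arrays. By ranks (Spearman's rho) the values were lower, from 0.44 for Wfikkn2 to 0.74 for Cd300lf. Cd200r4, at 2.69 to 4.06, and Bcl2a1c, at 2.41 to 4.11, lay below the array medians on all arrays, and signal over background was not judged. Cd300lf lay at 5.19 to 5.50 in control and at 7.92, 5.43, 5.74, 5.59 and 7.59 in BA cells. Lcp2 lay at 5.83 to 6.74 in control and at 7.53, 6.13, 6.46, 6.10 and 8.14 in BA cells. Over the 9 arrays without BA replicate 5 the first 5 were Serpinb1a (r = 0.96), Snora69 (0.95), Polr2k (0.94), Ptger2 (0.94) and Olfr1179 (0.94), and the 2 sets shared 0 genes. Serpinb1a, an inhibitor of neutrophil proteases, reached 8.49 on BA replicate 1 against 5.34 to 6.63 on the others. These values rest on 1 or 2 high arrays out of 10, so they describe those arrays.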

How the data were processed

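RNA was measured on Affymetrix mouse Gene ST 1.0 arrays, 1 per mouse. The authors deposited log2 values of 35557 probe sets, made with GCRMA (background correction, normalization and summary) per the submitters' processing notes, with no version in the sources used here. That the values are log2 follows from their range, 1.21 to 13.7. No scanner files or detection calls were used, so signal over background was not judged. The number of arrays limits the precision.

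Probe sets were named by a platform annotation table: 21789 had 1 symbol, 1621 several and 12147 none. Each of 19938 genes was represented by its probe set of highest mean. The groups were tested in limma 3.58.1 under R 4.3.3 with lmFit and eBayes, two-sided and without covariate, with Benjamini-Hochberg adjustment over all genes; the script was tested on simulated data. The members and 17 further lists (197 symbols, 182 measured) were chosen with earlier results of these data known, matched by symbol. Named were all members, up to 4 genes of smallest p per list, chosen partner genes, and the 5 genes most like the members' mean; Spi1, Ibsp, Ctsk, Ms4a4a, Fcgr1, Ccr2, C5ar1 and Tlr4 were added after their values were seen. Replicate numbers are shared by the groups but nothing says they pair mice. Alternatives were a replicate block, quantile normalization, median centring, a level filter, eBayes trend and robust settings, array weights, mean probe sets, a looser threshold, a Xist covariate and leaving out arrays.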

Additional observations from a re-analysis of the deposited data

Results flagged for a closer look

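Of 20 sets of 5 values (10 genes in 2 groups), 3 held 1 array far from the other 4 by Dixon's criterion, where chance gives about 1 in 20. C1qb was at 6.68 on BA replicate 5, with the other BA arrays at 5.55 to 5.76. Ly86 was at 7.86 on BA replicate 1, with the other BA arrays at 5.58 to 6.10. Ms4a6c was at 7.20 on control replicate 1, with the other control arrays at 4.04 to 4.69. These are 3 different arrays. The genes for which both BA replicates 1 and 5 were high, such as Mpeg1 and Ctss, are not picked out by this criterion, which looks for a single distant array.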

How the results depend on the processing

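No member passed the adjusted threshold under any of the 20 alternatives (lowest adjusted p = 0.393). The median difference of the members ranged from 0.31 to 0.91 and the number higher in BA from 8 to 10 when each array was left out in turn. Without BA replicates 1 and 5 together, an alternative chosen after seeing the data, the median was -0.016 and 4 of 10 were higher. C1qb, C1qc, Mpeg1, Ms4a6c and Ctss then changed sign, to -0.11, -0.0033, -0.16, -0.58 and -0.029. These arrays were picked for their high values, so the differences had to fall. Among genes above the median level 4 members remained to be tested, and 4 of 4 were higher. No member had its groups fully apart, except Cd68 without BA replicate 2 (range over arrays left out 0 to 1). C1qa changed sign with arrays centred on the median (0.008) and without control replicate 4 or BA replicate 2, 3 or 4, and ranged from -0.1675 to 0.0675 with single arrays left out. C1qb changed sign without BA replicate 5, and ranged from -0.0965 to 0.195. The cause was not tested. The number of genes called over all genes was 1, and ranged from 0 to 13 with single arrays left out (0 when control 2, control 5, BA 3 or BA 5 was dropped, 2 when control 4 or BA 1 was, and 13 when BA 4 was). It was 0 among genes above the median level, 2 with the covariate for Xist and 2 without BA replicates 1 and 5 together. With the replicate number as a block it was 0, and 0 members passed; deviations of same-numbered arrays correlated between -0.10 and 0.11 across genes, and 2 of 5 control arrays correlated best with their own number, so the numbers were not taken as pairs.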
